A study of Mus musculus with 4 samples.

Results

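The IL-17, IL-22 and IL-23 axis was followed on 4 arrays of mouse colon as 10 genes out of 22259 named genes, read by 11 of 39423 probes. The genes were the cytokines Il17a, Il17f and Il22, the IL-23 subunits Il23a and Il12b, the receptor chains Il17ra, Il22ra1, Il10rb and Il23r, and Il22ra2, which encodes a secreted IL-22 binding protein. They were chosen by pathway with the measured signals of these arrays known, and Il22ra2 was selected on its loss after azoxymethane, so all levels and folds are a description and none was tested. Each array held RNA pooled from several male mice, 42 weeks old, of a B6.129 background at backcross generation 3, and there was 1 array per group. The 4 groups were Pla2g3+/+ with saline vehicle, Pla2g3-/- with saline vehicle, Pla2g3+/+ with azoxymethane (AOM), a carcinogen that gives colon tumours, and Pla2g3-/- with AOM. AOM was given by intraperitoneal injection at 10 mg/kg in each of 6 weeks, and colons were taken 28 weeks after the final dose. Pla2g3 encodes group III secreted phospholipase A2. The labels name the tissue as colon, but describe both AOM pools as cancer tissue, while the study's description of the arrays gives the whole descending colon.

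IL-23 is a dimer of the p19 subunit from Il23a and the p40 subunit from Il12b, which IL-12 shares, and it comes mainly from dendritic cells and macrophages. Its receptor chain Il23r is carried by type 17 T cells, gamma delta T cells and group 3 innate lymphoid cells, and these cells release IL-17A, IL-17F and IL-22. IL-17A and IL-17F act through Il17ra with Il17rc to induce neutrophil chemokines, whereas IL-22 acts on epithelium through Il22ra1 and Il10rb to induce antimicrobial proteins and repair, and the binding protein from Il22ra2 holds IL-22 away from that receptor.

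The probes of the 3 members for which the letters matter most are given 5′ to 3′ as deposited, with mm9 coordinates, all in lower case because no part is marked. The Il22 probe lies at chr10:117642873-117642932 on the plus strand, and the deposited annotation assigns it to transcripts of Il22 and of its near-identical neighbour Iltifb, so signals of these genes cannot be told apart with it. The Il17f probe lies on the minus strand of chr1:20768074-20769419, which is a span of 1346 bases for a 60-base probe, so it crosses an intron. The probe at the 3′ end of the Il22ra1 coding sequence, which closes with a stop codon, lies on the plus strand at chr4:135307221-135307280 and is the dimmer of the Il22ra1 probes.
Il22: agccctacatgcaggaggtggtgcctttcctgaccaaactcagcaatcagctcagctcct
Il17f: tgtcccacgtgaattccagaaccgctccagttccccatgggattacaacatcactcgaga
Il22ra1: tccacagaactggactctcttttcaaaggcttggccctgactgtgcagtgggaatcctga
None of the 11 member probes shared a run of 16 bases with a probe of another gene name, on either strand.

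Il17a and Il17f are neighbours on chromosome 1, with 43.6 kb between their probes on mm9. RefSeq promoter entries (GRCm38.p6) were at hand for 6 of the 10 members: Il17a, Il17f, Il22, Il22ra1, Il23r and Il12b. The upstream 250 bases are shown for the 3 members that hold AGGTCA, a half-site of nuclear receptors, on either strand. Capitals mark these letters (TGACCT where they lie on the other strand), the TATA box letters TATAAA and the letters TGANTCA. The last are wider than the AP-1 site that they take in, so a match need not be that site. All of these letters were searched on both strands and none overlap here. Il17a lies at chr1:20730655-20730904 on the plus strand, Il17f at chr1:20784271-20784520 on the minus strand, and Il23r at chr6:67491856-67492105 on the minus strand.
Il17a: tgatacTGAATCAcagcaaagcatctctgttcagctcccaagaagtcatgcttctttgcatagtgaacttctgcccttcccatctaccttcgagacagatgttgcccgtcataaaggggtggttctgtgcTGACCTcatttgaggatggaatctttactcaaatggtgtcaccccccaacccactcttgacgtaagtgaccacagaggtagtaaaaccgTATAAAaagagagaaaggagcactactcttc
Il17f: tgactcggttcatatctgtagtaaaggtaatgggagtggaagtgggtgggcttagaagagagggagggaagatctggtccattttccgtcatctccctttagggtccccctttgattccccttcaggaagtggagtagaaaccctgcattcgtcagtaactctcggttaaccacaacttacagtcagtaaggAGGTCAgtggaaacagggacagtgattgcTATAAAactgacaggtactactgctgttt
Il23r: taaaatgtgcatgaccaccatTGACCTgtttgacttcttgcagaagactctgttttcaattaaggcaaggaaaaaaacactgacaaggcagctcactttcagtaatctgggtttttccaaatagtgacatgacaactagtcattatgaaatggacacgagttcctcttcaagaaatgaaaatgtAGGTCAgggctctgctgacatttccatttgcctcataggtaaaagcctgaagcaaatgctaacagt
Of 32851 RefSeq promoters of 300 bases, 16.3% hold AGGTCA on some strand, 13.6% hold TATAAA and 7.81% hold TGANTCA. A match describes these letters and not a bound site.

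Signals are given as a scaled signal, the Feature Extraction intensity of a probe as a percent of the 75th percentile of its array, with the spot error that Feature Extraction estimates. That percentile was 645.7 and 649.9 for the Pla2g3+/+ and Pla2g3-/- vehicle pools, 1309 and 1169 after AOM, and 64.8% to 69.4% of spots were well above background. The lowest signal well above background lay between 1.26% and 2.28%. Where only 1 array of a pair had a member well above background, the dim side was set to that lowest signal, and the fold is written as "at least". If its own signal was higher, that signal was used, and the fold is a plain ratio without "at least". Where a member was not well above background on either array no fold is given. The targeted gene went against the genotype labels, since the brightest Pla2g3 probe stood at a scaled signal of 53.1% in the Pla2g3+/+ vehicle pool against 65.6% in that labelled Pla2g3-/-, and at 23.2% against 140% in the AOM pools. The pools are therefore called by their labels, and every direction between genotypes rests on them. Whether the probe lies in the deleted part was not given in the sources used here. All 10 colon epithelium markers were well above background on every array.

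A group of members was read on every array, and the other members were read on some arrays or none, mostly near the detection limit. Exceptions were Il22ra2, at 121% and 67.1% with vehicle, and Il23a, at 14.1% in the Pla2g3+/+ AOM pool. Il17ra, Il22ra1 and Il10rb were well above background on all 4 arrays, and Il12b on none. The Pla2g3+/+ vehicle pool, the vehicle pool labelled Pla2g3-/- and the Pla2g3+/+ AOM pool each had 6 of 10 members well above background, and the AOM pool labelled Pla2g3-/- had 4. Each pool held a different set. Il17f was read only in the Pla2g3+/+ vehicle pool, Il23a only in the Pla2g3+/+ AOM pool and Il23r only in the AOM pool labelled Pla2g3-/-, while Il17a was read in the vehicle pool labelled Pla2g3-/- and in the Pla2g3+/+ AOM pool.

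**Figure D1:**
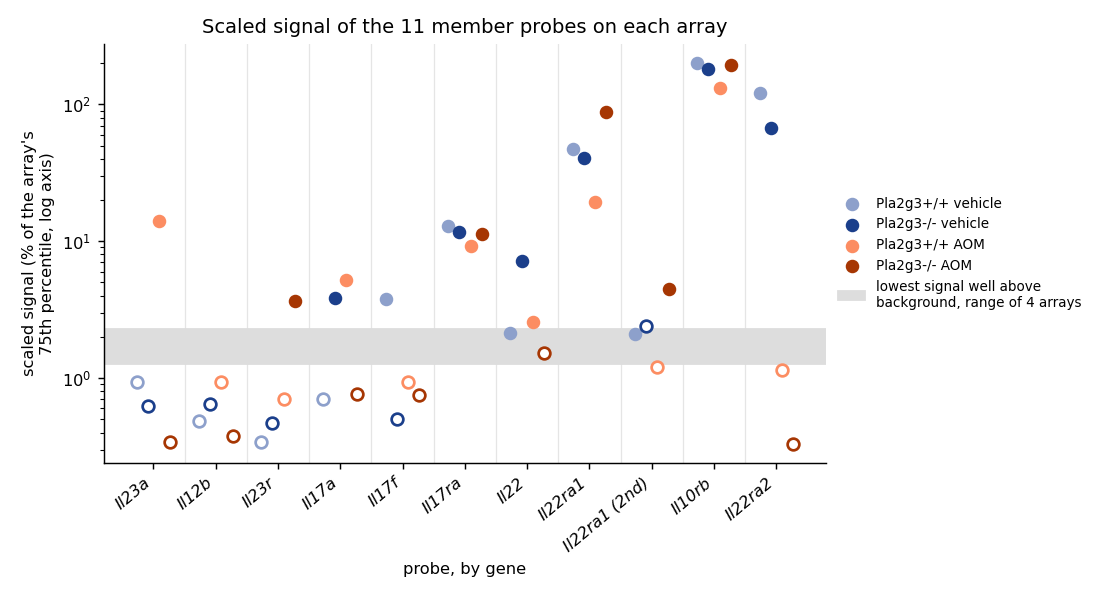
Scaled signal of each member probe on each array, as a percent of the array's 75th percentile on a log axis; filled points are well above background and open points are not. Levels of different probes are not comparable with each other. Il22ra2 drops from 121% and 67.1% with vehicle to open points after AOM, and Il23a has its single filled point, 14.1%, in the Pla2g3+/+ AOM pool.

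Against the background of all genes, the members past 2-fold were as follows. Between the vehicle pools, 2 members (Il17a and Il22) were higher in the pool labelled Pla2g3-/-, where 1.92% of 16315 genes with a value were, and 0 were lower, against 1.32% of genes. Between the AOM pools, 2 members (Il22ra1 and Il23r) were higher in the pool labelled Pla2g3-/-, against 15.1% of 17115 genes, and 2 (Il17a and Il23a) were lower, against 12.9%. AOM against vehicle in the Pla2g3+/+ pools gave 2 higher members (Il17a and Il23a), against 15.1% of 17195 genes, and 3 lower members (Il17f, Il22ra1 and Il22ra2), against 22.3%. With other scalings the split of all genes moved, and with the 75th percentile taken over probes detected on all 4 arrays it was 18.99% higher and 17.45% lower. In the pools labelled Pla2g3-/-, AOM against vehicle gave 1 higher member (Il22ra1), against 9.64% of 16437 genes, and 3 lower members (Il17a, Il22 and Il22ra2), against 15.1%. With normexp background correction and an offset of 50, the calls that passed 2-fold were Il22ra1 and Il23a between the AOM pools, Il23a and Il22ra2 by treatment in Pla2g3+/+ and Il22ra2 by treatment in Pla2g3-/-. Without scaling, Il17f and Il22ra1 in Pla2g3+/+ and Il17a in Pla2g3-/- no longer passed 2-fold by treatment. The comparisons share arrays in pairs, so a single array enters 2 of them. Il22ra2 was selected on its loss after AOM, so its place among the lower members by treatment was fixed in advance. Il12b had no value in any comparison. Il23a and Il23r had none between the vehicle pools, and Il17f and Il22ra2 none between the AOM pools. By treatment Il23r had none in Pla2g3+/+, and Il17f and Il23a none in the pools labelled Pla2g3-/-.

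**Figure D2:**
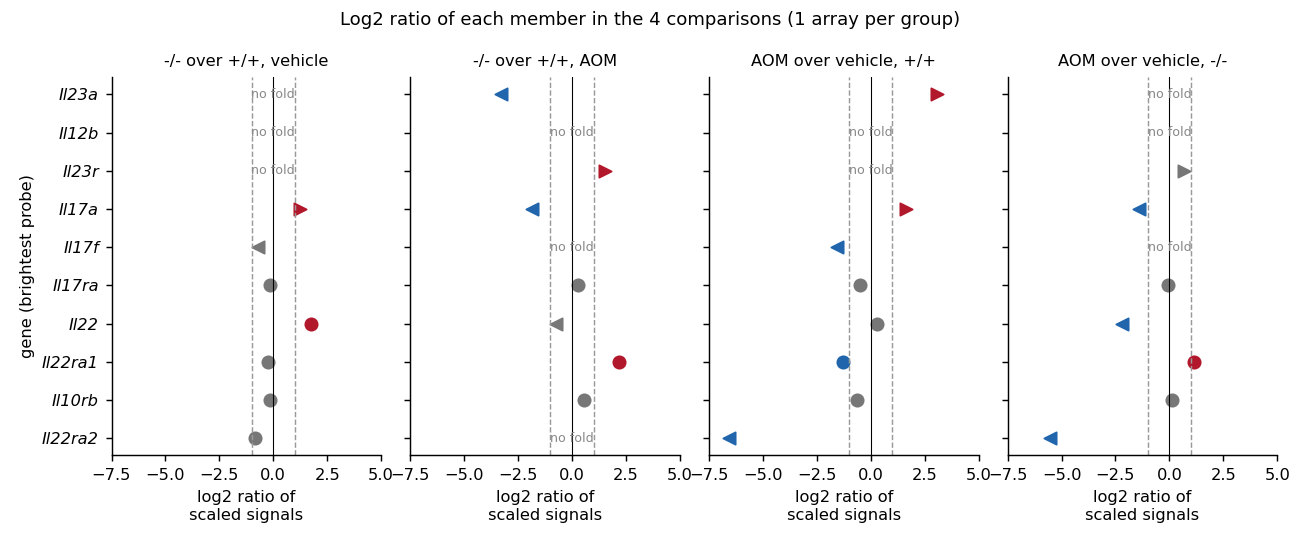
Log2 ratio of scaled signals for the brightest probe of each member in the 4 comparisons, with 1 array per group. Circles are ratios of signals well above background on both arrays, and triangles are bounds pointing away from 0, or for Il22 plain ratios with its dim signal. Dashed lines mark 2-fold, and red or blue mark ratios past it. Il17a points right, left, right and left across the 4 panels, and Il22ra1 left for AOM over vehicle in Pla2g3+/+ and right in Pla2g3-/-.

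Il17a, the cytokine of type 17 lymphocytes that recruits neutrophils, was above background in opposite pools of the 2 treatments. Its scaled signal was 0.707 ± 0.389% in the Pla2g3+/+ vehicle pool and 3.87 ± 0.65% in the vehicle pool labelled Pla2g3-/-, then 5.21 ± 0.59% in the Pla2g3+/+ AOM pool and 0.759 ± 0.341% in the AOM pool labelled Pla2g3-/- (spot error, 1 spot per array). The middle pair of these 4 arrays was high and the outer pair was not well above background. Il17a was thus at least 2.33-fold higher in the pool labelled Pla2g3-/- with vehicle and at least 3.56-fold lower in it after AOM. By treatment it was at least 3.14-fold higher with AOM in Pla2g3+/+ and at least 2.64-fold lower in the pools labelled Pla2g3-/-. All 4 differences rest on intensities between 4.57 and 68.2, near the lower end of the array. In pooled tissue, fewer cells of a type and less RNA per cell cannot be told apart.

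Il17f, the closest relative of Il17a, did not follow it. The Il17f signal was 3.76 ± 0.52% in the Pla2g3+/+ vehicle pool, 0.499% in the vehicle pool labelled Pla2g3-/-, 0.932% in the Pla2g3+/+ AOM pool and 0.758% in the AOM pool labelled Pla2g3-/-. The 0.499% was a surrogate, a value that Feature Extraction puts in place of a low signal. Only the Pla2g3+/+ vehicle pool was well above background, a pool in which Il17a was not. It fell by at least 2.99-fold with AOM in Pla2g3+/+, and it was at least 1.65-fold lower in the vehicle pool labelled Pla2g3-/-, which does not pass 2-fold as a bound. The probes of Il17a and Il17f share no run longer than 5 bases, so their signals come from different letters.

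Il17ra, the receptor chain common to IL-17A and IL-17F, hardly differed between pools. It gave 13.0 ± 1.4%, 11.7 ± 1.3%, 9.25 ± 0.98% and 11.3 ± 1.2% in the Pla2g3+/+ and Pla2g3-/- vehicle pools and the Pla2g3+/+ and Pla2g3-/- AOM pools. The highest signal was that of the Pla2g3+/+ vehicle pool and the lowest that of the Pla2g3+/+ AOM pool, 1.40-fold apart. Its partner Il17rc, which completes the receptor, went with the pools far more, at 2063% and 2363% with vehicle, 498% in the Pla2g3+/+ AOM pool and 2164% in the AOM pool labelled Pla2g3-/-. Il17re, the epithelial receptor for IL-17C, was likewise lowest in the Pla2g3+/+ AOM pool at 60.3% and highest in the AOM pool labelled Pla2g3-/- at 230%. Of the 8 other IL-17 ligands and receptors, 6 had a value between the AOM pools. Of these 6, 3 were higher and 2 lower in the pool labelled Pla2g3-/-, against 15.1% and 12.9% of all genes. Il17c was well above background in the Pla2g3+/+ AOM pool alone, at 3.66%.

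Il22, the lymphocyte cytokine that acts on epithelium, was highest in the vehicle pool labelled Pla2g3-/-. Its scaled signal was 2.12 ± 0.41% in the Pla2g3+/+ vehicle pool, 7.12 ± 0.86% in the vehicle pool labelled Pla2g3-/-, 2.58 ± 0.37% in the Pla2g3+/+ AOM pool and 1.54 ± 0.35% in the AOM pool labelled Pla2g3-/-, where it was not well above background. The first 3 were well above background, and the Pla2g3+/+ pools lay within 1.21-fold of each other, although without scaling Il22 was past 2-fold higher with AOM (log2 1.30). With vehicle Il22 was 3.35-fold higher in the pool labelled Pla2g3-/-, a log2 ratio of 1.75 with a spot error of 0.33. After AOM it was 1.68-fold lower in the pool labelled Pla2g3-/-, short of 2-fold, and within the Pla2g3-/- label it fell 4.63-fold with AOM. Both are plain ratios with the dim signal itself, with log2 spot errors of 0.39 and 0.37. The 2 probes named for Iltifb alone were not well above background on any array, with surrogate values of 0.323% to 0.646%.

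Il17a and Il22 were the members past 2-fold between the vehicle pools, and both were dim there. Of 2497 genes with an intensity under 50 in both vehicle pools, a limit set after the values were seen, 4.29% were over 2-fold higher and 2.60% lower in the pool labelled Pla2g3-/-. Between replicate spots of a single array, the log2 SD had a median of 0.21 to 0.30 at intensities of 10 to 50 and of 0.06 to 0.07 at 50 to 2000. All 12 pancreatic acinar markers were also higher in the vehicle pool labelled Pla2g3-/-, by a median of 38.6-fold, with summed scaled signals of 50.7% and 5183% in the vehicle pools and of 26.6% and 29.0% in the AOM pools. Within that list 12 markers were well above background in that pool and 7, 4 and 4 in the others. The part of these markers in the Il17a and Il22 differences was not tested.

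Il22ra1, the epithelial chain of the IL-22 receptor, turned in opposite directions with AOM. Its brighter probe gave 47.5 ± 4.8% and 40.3 ± 4.1% in the Pla2g3+/+ and Pla2g3-/- vehicle pools, 19.5 ± 2.0% in the Pla2g3+/+ AOM pool and 87.7 ± 8.8% in the AOM pool labelled Pla2g3-/-. The AOM pools were the lowest and the highest, with both vehicle pools between them. Il22ra1 fell 2.44-fold with AOM in Pla2g3+/+, rose 2.17-fold in the pools labelled Pla2g3-/- and was 4.50-fold higher in the latter after AOM. Its dimmer probe, whose letters are printed above, gave 2.08%, 2.41%, 1.21% and 4.47% in the same order, with only the first and last well above background. That probe had the same direction, at least 3.55-fold higher in the AOM pool labelled Pla2g3-/-. By treatment its bound of 1.66-fold lower in Pla2g3+/+ and its plain ratio of 1.86-fold higher in Pla2g3-/- stayed within 2-fold.

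Il10rb, the widely expressed second chain of the IL-22 receptor, gave 200 ± 20% and 180 ± 18% in the Pla2g3+/+ and Pla2g3-/- vehicle pools, and 131 ± 13% and 194 ± 19% after AOM. The Pla2g3+/+ AOM pool was the lowest, 1.53-fold under its vehicle pool, and the other 3 lay close together. Il10rb thus stayed within 2-fold in all 4 comparisons while its partner Il22ra1 did not.

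Among 14719 other genes read on all 4 arrays, the 5 with the profile most like that of Il22ra1 were Ndrg2, Sema4g, Trak1, Tspan15 and Plcd1. Their log2 levels, centred over the 4 arrays, differed from those of Il22ra1 by a root mean square of 0.02 to 0.07. Ndrg2, for example, ran 793%, 695%, 336% and 1491%. Between the AOM pools, colon epithelium markers had 3 of 10 higher and 0 lower in the pool labelled Pla2g3-/-, with a median of 1.61-fold. Of 8 markers of differentiated colonocytes 7 were higher and 1 lower, with a median of 12.3-fold higher. Over all genes, 15.1% were higher and 12.9% lower between these pools. The summed scaled signal of the colonocyte markers was 58927% and 60953% with vehicle, 4604% in the Pla2g3+/+ AOM pool and 29661% in the AOM pool labelled Pla2g3-/-. The part of these markers in the Il22ra1 values was not tested.

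Il22ra2 had the widest range of all members. It gave 121 ± 12% in the Pla2g3+/+ vehicle pool and 67.1 ± 6.7% in the vehicle pool labelled Pla2g3-/-, but 1.14 ± 0.30% and 0.332 ± 0.332% in the AOM pools, neither of which was well above background. Both vehicle pools were high and both AOM pools were at the detection limit. The value of the AOM pool labelled Pla2g3-/- was a surrogate and not a measured signal. Il22ra2 fell by at least 96.0-fold with AOM in Pla2g3+/+ and by at least 45.9-fold in the pools labelled Pla2g3-/-, and between the vehicle pools it was 1.80-fold lower in the pool labelled Pla2g3-/-. No fold is given between the AOM pools.

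The IL-22 binding protein is known from dendritic cells and lymphoid follicles. With AOM the dendritic list had 0 genes higher and 3 lower of 10 in the pools labelled Pla2g3-/-, against 9.64% and 15.1% of all genes. In Pla2g3+/+ it had 3 higher, 2 lower and 6 within 2-fold of 11, against 15.1% higher and 22.3% lower over all genes. Itgax, the CD11c gene, went from 29.7% to 187% in Pla2g3+/+, and Cd209a from 5.55% to 1.84%. Follicle and B cell markers fell in 8 of 11 genes there and in 7 of 10 in the pools labelled Pla2g3-/-, with summed scaled signals of 447% and 397% with vehicle and 139% and 81.7% after AOM. Their medians were 2.84-fold and 6.77-fold lower, against bounds of 96.0-fold and 45.9-fold for Il22ra2, and the part of these cells in the loss was not tested.

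Il23a, the subunit that makes IL-23 distinct from IL-12, was read on a single array. It gave 0.936 ± 0.391% and 0.622 ± 0.513% in the Pla2g3+/+ and Pla2g3-/- vehicle pools, 14.1 ± 1.4% in the Pla2g3+/+ AOM pool and 0.344 ± 0.343% in the AOM pool labelled Pla2g3-/-. Only the Pla2g3+/+ AOM pool was well above background, and the value of the AOM pool labelled Pla2g3-/- was a surrogate. Il23a rose by at least 8.52-fold with AOM in Pla2g3+/+ and was at least 9.66-fold lower in the AOM pool labelled Pla2g3-/-.

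Il12b, the p40 partner of Il23a, is spotted 10 times on each array, which gave a view of its error. The median scaled signal over these spots was 0.478% (0.350% to 1.21%) in the Pla2g3+/+ vehicle pool, 0.679% (0.478% to 1.94%) in the vehicle pool labelled Pla2g3-/-, 0.999% (0.593% to 1.92%) in the Pla2g3+/+ AOM pool and 0.370% (0.307% to 0.483%) in the AOM pool labelled Pla2g3-/-. The spots of the AOM pools did not overlap and those of the vehicle pools did. How often this holds for other probes with replicate spots was not counted, so nothing is read from it. By the weaker call of Feature Extraction, a signal positive and significant against background, 4, 4, 10 and 0 of the 10 spots passed in that order, but only 1 spot, in the Pla2g3+/+ AOM pool, was well above background. Feature Extraction put a surrogate value in place of the signal for 6, 6, 0 and 10 of the spots. The narrow range in the AOM pool labelled Pla2g3-/- is therefore one of surrogates and not of measured signals. Il12b therefore has no fold, and spots of 1 array share a pool and are not replicates of a condition.

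**Figure D3:**
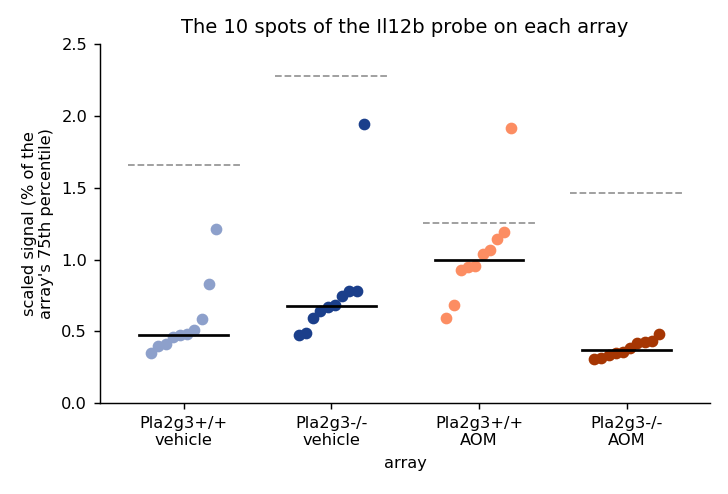
Scaled signal, as a percent of the array's 75th percentile, of the 10 spots of the Il12b probe on each array. Points are spots, black lines their medians and dashed grey lines the lowest signal well above background on that array. The Pla2g3+/+ AOM spots run from 0.593% to 1.92%. The Pla2g3-/- AOM spots (0.307% to 0.483%) are all surrogate values.

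Il23r, the receptor chain of the lymphocytes that answer IL-23, was read only in a pool where Il23a was not. It gave 0.344 ± 0.343%, 0.469 ± 0.468% and 0.706 ± 0.266% in the Pla2g3+/+ vehicle pool, the vehicle pool labelled Pla2g3-/- and the Pla2g3+/+ AOM pool, and 3.65 ± 0.47% in the AOM pool labelled Pla2g3-/-. Only the last was well above background, and both vehicle values were surrogates. Il23r was at least 2.90-fold higher in the AOM pool labelled Pla2g3-/- than in Pla2g3+/+, and at least 1.60-fold higher than in its own vehicle pool, short of 2-fold. Of 14 type 17 and group 3 innate lymphoid genes with a value, 2 were higher and 7 lower in the AOM pool labelled Pla2g3-/-. T cell markers had 0 higher and 9 of 11 lower, with a median 3.55-fold lower. Over all genes, 15.1% were higher and 12.9% lower between these pools. Summed T cell signals were 712% and 681% with vehicle, 597% in the Pla2g3+/+ AOM pool and 232% in the AOM pool labelled Pla2g3-/-.

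The genes known to respond to IL-17 and to IL-22 were counted as separate lists, and no difference between the lists was tested. Over all genes, 15.1% were higher and 22.3% lower with AOM in Pla2g3+/+, and 15.1% higher and 12.9% lower between the AOM pools. Of 20 IL-17 target genes, 19 had a value for AOM over vehicle in Pla2g3+/+, of which 15 were higher and 1 (Pigr) lower, with a median log2 ratio of 3.90 against -0.17 over all genes. Between the AOM pools 15 of 19 were lower and 1 (Pigr) higher in the pool labelled Pla2g3-/-, with a median 13.7-fold lower. S100a9, an alarmin of neutrophils, had 22.4%, 15.5%, 3574% and 38.7% in the Pla2g3+/+ and Pla2g3-/- vehicle and Pla2g3+/+ and Pla2g3-/- AOM pools. Mmp13, a collagenase, had 8.88%, 7.75%, 949% and 5.33%, and the neutrophil chemokine gene Cxcl3 was well above background only in the Pla2g3+/+ AOM pool, at 76.1%. Between the vehicle pools, where Il17a itself was higher in the pool labelled Pla2g3-/-, 0 of 13 IL-17 targets were higher and 1 was lower. The shares of all genes there were 1.92% and 1.32%.

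Of 18 IL-22 target genes, 8 were higher and 7 lower with AOM in Pla2g3+/+, against 15.1% and 22.3% of all genes. Between the AOM pools 4 of 17 were higher and 7 lower in the pool labelled Pla2g3-/-, against 15.1% and 12.9%. Their median log2 ratios were -0.03 and -0.70, against -0.17 and 0.03 over all genes. Between the vehicle pools 3 of 17 were higher in the pool labelled Pla2g3-/- and 1 was lower, against 1.92% and 1.32% of all genes. Reg3b, an antimicrobial lectin that pancreatic acinar cells also express, had 2886% and 28127% with vehicle and 278% and 34.7% after AOM. Socs3, the feedback inhibitor of STAT3 signalling, ran 75.7%, 179%, 434% and 56.4%, and Saa2, an acute phase protein, ran 13113%, 11751%, 1049% and 4667%. Lcn2, Duox2, Il6 and Socs3 stand on 2 of the lists each.

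Upstream of IL-23, genes of the signals that induce it in myeloid cells were counted as well. Of 13 such genes 7 were higher, 5 were within 2-fold and 1 was lower with AOM in Pla2g3+/+, and 8 of 12 were lower and 0 higher in the AOM pool labelled Pla2g3-/-, with a median 4.99-fold lower. Il1b, which drives type 17 responses, had 10.2%, 9.67%, 567% and 7.90%. In the pools labelled Pla2g3-/- 0 of 10 of these genes were higher with AOM and 3 were lower, against 9.64% and 15.1% of all genes. Among the other IL-12 and IL-23 chains, 2 of 5 were higher with AOM in Pla2g3+/+ and 3 of 5 lower in the AOM pool labelled Pla2g3-/-. Il12rb1, which pairs with Il23r, gave 11.7% in the vehicle pool labelled Pla2g3-/- and 10.6% in the Pla2g3+/+ AOM pool but at most 4.05% in the other pools, so that it was low in the pool where Il23r was read. Of the IL-10 and IL-20 relatives 2 of 4 were higher with AOM in Pla2g3+/+ and 2 of 5 lower in the AOM pool labelled Pla2g3-/-. Of 11 genes that signal below the IL-17 receptor, 3 were higher and 1 lower with AOM in Pla2g3+/+. Of 8 genes that signal below the IL-22 and IL-23 receptors, 4 were higher and 0 lower. In the AOM pool labelled Pla2g3-/-, 2 and 3 of these genes were lower and 0 higher. Over all genes, 15.1% were higher and 22.3% lower with AOM in Pla2g3+/+, and 15.1% higher and 12.9% lower between the AOM pools.

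**Figure D4:**
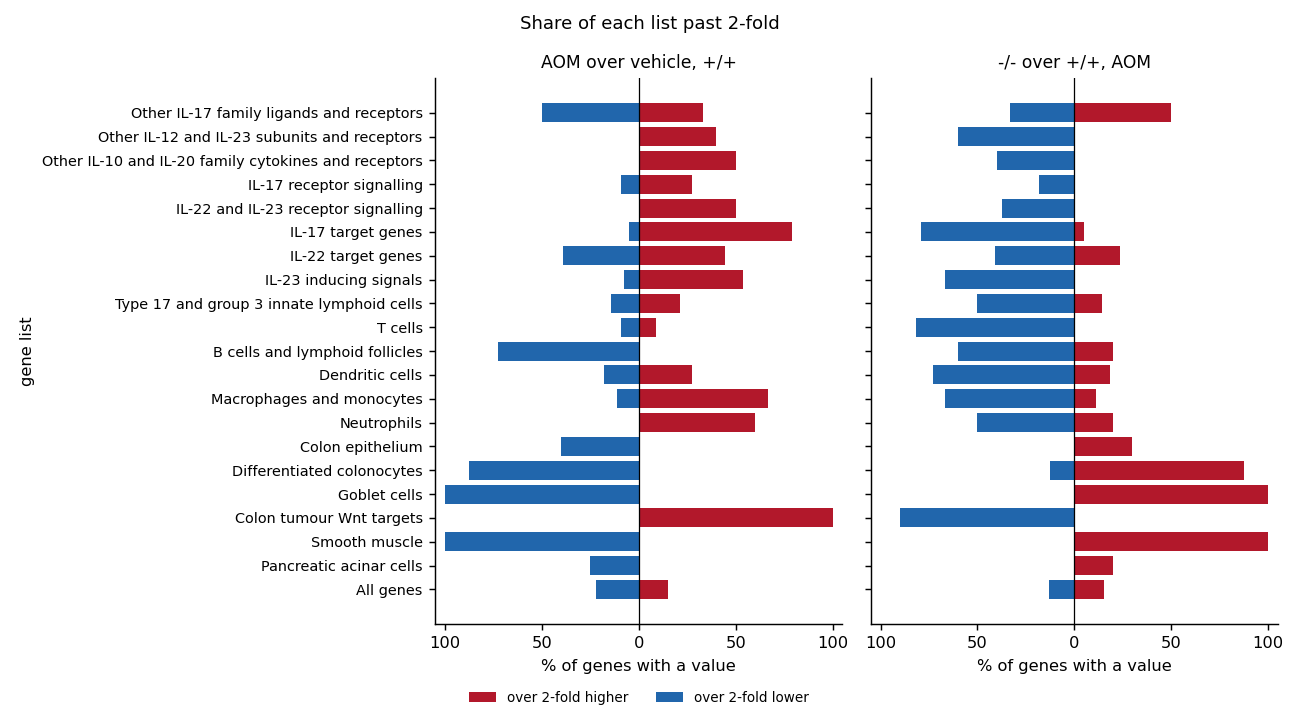
Share of the genes with a value in each list that were over 2-fold higher (red, right) or lower (blue, left), for AOM over vehicle in Pla2g3+/+ and for the AOM pools labelled Pla2g3-/- over Pla2g3+/+, with all genes as the last bar. IL-17 targets lie mostly to the right in the first panel and to the left in the second, smooth muscle the reverse with 9 of 9 genes in each.

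The AOM pools also differed in the signals of cell type and tumour markers. All 9 smooth muscle markers were lower with AOM in Pla2g3+/+, by a median of 22.5-fold, and all 9 were higher in the AOM pool labelled Pla2g3-/-, by a median of 23.2-fold, with summed scaled signals of 51705%, 54248%, 3119% and 49780% over the 4 arrays. All 10 tumour Wnt targets were higher with AOM in Pla2g3+/+ and 9 were lower in the AOM pool labelled Pla2g3-/-, with sums of 1015%, 1017%, 7065% and 901%. All 7 goblet cell markers were lower with AOM in Pla2g3+/+ and all 7 higher in the AOM pool labelled Pla2g3-/-, with sums of 149744%, 141375%, 11598% and 58531%. With AOM in Pla2g3+/+, macrophage markers were higher in 6 of 9 and lower in 1. Neutrophil markers were higher in 6 of 10 and lower in 0. In the AOM pool labelled Pla2g3-/-, 6 macrophage markers were lower and 1 higher, and 5 neutrophil markers were lower and 2 higher. Over all genes, 15.1% were higher and 22.3% lower with AOM in Pla2g3+/+, and 15.1% higher and 12.9% lower between the AOM pools. Between the vehicle pools neutrophil markers were higher in 3 of 8, against 1.92% of all genes. The median scaled signal of the neutrophil markers was 34.2% in the Pla2g3+/+ AOM pool and at most 5.73% in the others, and that of the macrophage markers ran 44.7%, 74.4%, 170% and 65.6%. Their sums ran otherwise. For neutrophils the sums were 5545%, 5475%, 4972% and 7155%, of which Csf3r alone gave 4945%, 5001%, 4441% and 5378%. Ltf, also on the neutrophil list, gave 1.71%, 3.20%, 35.9% and 982%, the first not well above background. For macrophages the sums were 2981%, 2783%, 2875% and 2238%, of which Itgam gave 1871%, 1536%, 595% and 1263%. Dendritic sums ran 4355%, 3217%, 4829% and 1932%. The part of tissue makeup in the values of Il17a, Il23a, Il23r and Il22ra1 after AOM was not tested.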

How the data were processed

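RNA pooled from mouse colon was measured on 4 one-color (Cy3) arrays, 1 per group, grouped by the deposited sample titles. Spot values are the authors' deposited intensity, made with Feature Extraction 11.5.1.1. The file headers give background subtraction, detrending and surrogates for low spots, and arrays were not scaled to each other. The deposited p-value for equality with background was not used as a test, and the detection flags were used as they stand. The deposited value table is a ratio, the authors' intensity over the array's 75th percentile, and it served as an alternative.

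Control and outlier spots were left out, replicate spots were averaged on the log2 scale, and each array was divided by its 75th percentile. A probe was detected where over 50% of its spots were well above background. Of 39423 probes, 31046 matched RefSeq names (GRCm38.p6, names and promoters only), and the brightest probe stood for a gene. A single array per group leaves no replicate check, so no test was made, and the number of arrays limits the precision. A ratio past 2-fold was the call.

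Members and the 20 lists (8 pathway, 12 cell type marker) were chosen with earlier results of these data known. Named genes were the members, then from each list at most 5 genes past 2-fold in both Pla2g3-/- over Pla2g3+/+ after AOM and AOM over vehicle in Pla2g3+/+, and the 5 profiles most like Il22ra1. The same for Il22ra2 is not given, since 2 of its 4 signals were not well above background. Pigr and Csf3r, outside that rule, were named after their values were seen. One list gene is not reported here.

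Alternatives numbered 13: no scaling, median scaling, the percentile over probes detected on all arrays, quantile normalization, normexp (offset 50, limma 3.58.1, R 4.3.3), the deposited table, other detection rules, other probe choices, and thresholds of 1.5-fold and 4-fold. Tables and figures used Python 3.11.15, pandas 2.3.3, numpy 2.4.6 and matplotlib 3.10.9.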

Additional observations from a re-analysis of the deposited data

Results flagged for a closer look

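Il17a and Il22ra1 were past 2-fold in opposite directions under the same contrast in different pools, with 1 array per pool, and the difference was not tested. The log2 ratio of Il17a for the pool labelled Pla2g3-/- over Pla2g3+/+ was at least 1.22 with vehicle and at or below -1.83 after AOM. For AOM over vehicle it was at least 1.65 in Pla2g3+/+ and at or below -1.40 in the pools labelled Pla2g3-/-. The log2 ratio of Il22ra1 for AOM over vehicle was -1.29 in Pla2g3+/+ and 1.12 in the pools labelled Pla2g3-/-.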

How the results depend on the processing

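The 10 members were counted past 2-fold under 13 alternatives, in the order of the pool labelled Pla2g3-/- over Pla2g3+/+ with vehicle and after AOM, then AOM over vehicle in Pla2g3+/+ and in Pla2g3-/-. No member past 2-fold changed direction. Median scaling, quantile normalization and the percentile over probes detected on all arrays moved no count by over 1.5 times. The deposited table holds the same ratio as the main values, so its agreement was fixed in advance, though it enters the totals below. Unscaled intensities moved the median of all genes by treatment from -0.17 to 0.87 and from -0.08 to 0.76 (log2), and gave 3 higher (Il17a, Il22 at 1.30 and Il23a) and 1 lower member (Il22ra2) in Pla2g3+/+ and 2 higher (Il22ra1 and Il23r) in Pla2g3-/-, with Il17ra at 0.53 and Il10rb at 0.41 in Pla2g3+/+ where scaled values were -0.49 and -0.61. Normexp with an offset of 50, which draws dim signals together, gave 0 higher, then 1 higher and 1 lower, 1 and 1, and 0 and 1, with Il17a at 0.41, -0.53, 0.58 and -0.36 and Il22 at 0.60 with vehicle (log2). With members read on both arrays alone, so fewer genes, the counts were 1 higher, then 1 and 0, 0 and 1, and 0 lower. With no filter on dim probes, and with the weaker detection call, there were 1 lower (Il17f) with vehicle, 4 lower after AOM and 2 higher by treatment in Pla2g3-/-. The dimmest probe gave 0 higher by treatment in Pla2g3-/-, as Il22ra1 then stood at 0.89. A 1.5-fold threshold gave 2 lower with vehicle and 2 higher by treatment in Pla2g3-/-, and a 4-fold threshold 0 higher, 1 and 1, 1 and 1, and 0 higher. Of 104 such counts 74 stayed within 1.5 times, and of 304 member log2 ratios 283 kept their side of 2-fold, of which 4 (Il17ra and Il10rb by treatment) changed sign within 2-fold. Of 2080 list counts, 1774 stayed within 1.5 times and 306 did not. Where a cause is not named, the cause was not tested.

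No paired analysis was possible because each group is a single array. With 1 array per group and most member signals near background, a ratio short of 2-fold does not show that pools were alike. Il12b has no fold, Il17f, Il23a and Il23r have only bounds or no fold, and every fold of Il17a is a bound.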
